A study of Mus musculus with 12 samples.

Results

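The expression of 35 genes of fatty acid oxidation and of the PPAR-alpha programme was measured by RNA-seq in 12 mouse livers. The genes were taken by symbol from a deposited count table of 27304 genes, all 35 were found there, and all 35 passed the filter on low counts. They comprise the receptor gene Ppara, 5 genes of the carnitine shuttle, 14 genes of mitochondrial beta-oxidation, 6 genes of peroxisomes, 4 acyl-CoA thioesterase genes, the ketone body gene Bdh1 and 4 further targets. Per the labels, 6 livers came from Apoe-/-AhR-/- mice (here Ahr-null), which lack the aryl hydrocarbon receptor, a ligand-activated transcription factor, and 6 from Apoe-/- mice (here controls). Both genotypes lack apolipoprotein E, a protein of circulating lipoproteins, so no liver stands for a wild-type mouse. Each genotype was represented by 3 males and 3 females, and all had been fed the diet labelled HFD for 12 weeks. The alleles, the age of the mice and the composition of the diet were not given in the sources used here. After death the animals were rinsed through with PBS before the liver was taken. Values in a group are given in the order of replicates 1, 2 and 3, which are numbers from accession order that only name the samples. The labels do not say that each liver came from a separate mouse, so the p-values reflect the spread among these samples only, which may be partly technical.

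Fatty acids enter mitochondria as carnitine esters and are shortened there by repeated rounds of dehydrogenation, hydration, a further dehydrogenation and thiolysis, while peroxisomes shorten very long, branched and dicarboxylic chains. In liver, part of the acetyl-CoA formed is released as ketone bodies during fasting. PPAR-alpha, a nuclear receptor bound by fatty acids, pairs with RXR on direct repeat elements and raises many genes of both pathways, in rodents those of peroxisomes most of all.

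Library totals lay between 9794253 and 18924880 counts, so that 1 count was worth 0.0395 to 0.109 CPM, the unit of all levels here (counts scaled to a common total and by TMM factors). The 12 hepatocyte markers, of which 11 were in the table, summed to 22343 to 81539 CPM per library. Ahr itself had 13.7 to 24.5 CPM in the Ahr-null livers and 12.4 to 25.0 CPM in the controls. Counts summed over a gene do not show a missing exon, so Ahr does not check the genotype labels. The 22 neuron and glia markers gave a summed level of 647 CPM for replicate 1 of the Ahr-null females and of 397 CPM for replicate 1 of the control males, while the remaining 10 libraries had 49.7 to 101 CPM. Skeletal muscle markers were also highest in these 2 libraries, at 36.5 and 53.9 CPM, against 2.94 to 7.53 CPM in the remaining 10. That Ahr-null female library further had the highest sums of cholangiocyte (262 CPM), stellate cell and fibroblast (1335 CPM) and hepatocyte markers (81539 CPM). Counts of members, and the fold changes that moved most, are also given without these 2 libraries with neural transcripts. That name only labels them, and which of their traits moved a value was not tested. Mitochondrially encoded genes took 30.4% to 59.8% of the counts in Ahr-null libraries and 46.7% to 69.8% in control libraries. The 10 adipocyte markers, none of them at 0 in every library, summed to 618 to 1396 CPM in Ahr-null males and 1363 to 1856 CPM in control males. In females the adipocyte sum was 398 to 1210 CPM in Ahr-null livers and 1327 to 1915 CPM in controls. Of these 10 markers 6 passed the filter, and edgeR called 0 of them for the genotype effect averaged over the sexes. Cidec, a marker of this list, is also counted below among PPAR-alpha targets, where DESeq2 called it higher in Ahr-null livers. The sum of 9 lymphocyte markers was 8.30 to 14.2 CPM in Ahr-null males and 2.19 to 9.56 CPM in control males, and 14.6 to 22.7 CPM in Ahr-null females and 6.63 to 8.51 CPM in control females. Of the lymphocyte markers 8 passed the filter, and edgeR likewise called 0. The part of these cell types and of the mitochondrial share in the results was not tested.

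Promoters of 31 of the 35 genes were matched in RefSeq (GRCm38.p6), as the 250 bases before each annotated start. Decr1, Crat, Acaa2 and Vnn1 had no entry. The direct repeat of AGGNCA with 1 base between its arms, an element that PPAR-RXR and other receptors bind, was searched on both strands and found at Fabp1 alone (1 of 31 genes, or 3.23%, against 0.338% of all 32851 promoters of the table), at 67 to 55 bases before the start. Its single arm AGGTCA, also on both strands and overlapping the repeat at Fabp1, was found in 7 of the 31 genes (22.6%, against 14% of all promoters), namely Acadm, Acadvl, Acot4, Cpt1a, Echs1, Fabp1 and Plin2. The E-box CACGTG, the element of the clock factors, was found at Acot4 (1 of 31 genes, or 3.23%, against 6.02% of all promoters). A match describes the letters of the window and is no evidence of binding. Fabp1, the gene with the highest level, is shown for its direct repeat. Acot4 and Acot3 are neighbours that were lower in males than in females in both genotypes, and Slc25a20 is a gene whose Ahr-null and control livers did not overlap in either sex. Capitals mark matches to these motifs, and Acot3 and Slc25a20 have none. The windows are chr6:71199629-71199878 (plus strand) for Fabp1, chr12:84038129-84038378 (plus) for Acot4, chr12:84051894-84052143 (plus) for Acot3 and chr9:108661886-108662135 (plus) for Slc25a20.
Fabp1: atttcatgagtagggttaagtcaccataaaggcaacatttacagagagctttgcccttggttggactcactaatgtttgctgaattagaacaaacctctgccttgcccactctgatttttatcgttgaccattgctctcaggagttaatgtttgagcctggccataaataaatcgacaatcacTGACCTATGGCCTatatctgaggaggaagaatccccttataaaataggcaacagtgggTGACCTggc
Acot4: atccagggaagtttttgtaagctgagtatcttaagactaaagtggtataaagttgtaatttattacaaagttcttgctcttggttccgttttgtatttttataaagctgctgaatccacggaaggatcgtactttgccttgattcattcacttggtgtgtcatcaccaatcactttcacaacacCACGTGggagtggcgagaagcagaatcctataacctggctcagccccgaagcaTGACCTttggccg
Acot3: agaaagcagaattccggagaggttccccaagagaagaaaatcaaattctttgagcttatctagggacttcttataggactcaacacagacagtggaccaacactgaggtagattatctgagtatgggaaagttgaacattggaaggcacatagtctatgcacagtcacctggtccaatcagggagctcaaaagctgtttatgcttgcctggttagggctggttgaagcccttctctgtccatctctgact
Slc25a20: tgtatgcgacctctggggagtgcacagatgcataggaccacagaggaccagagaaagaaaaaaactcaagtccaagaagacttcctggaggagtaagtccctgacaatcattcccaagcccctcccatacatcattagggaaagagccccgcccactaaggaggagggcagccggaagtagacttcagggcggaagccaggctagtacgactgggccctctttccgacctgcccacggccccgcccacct

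Levels of different genes were compared as CPM per kilobase of exon. On this scale Fabp1, which encodes the abundant fatty acid binding protein of the hepatocyte cytosol, was highest at 2040 ± 871 (SD over 12 libraries) and lay above the next gene in 12 of 12 libraries. Acaa1b, a peroxisomal thiolase gene, followed at 426 ± 206 and exceeded the third gene, Etfb, in 11 of 12 libraries. Etfb (104 ± 57.7) and Etfa (74.0 ± 40.4) encode the subunits of the flavoprotein that takes electrons from the acyl-CoA dehydrogenases. Acaa1a (68.1 ± 23.4) and Acaa2 (67.2 ± 22.8), a mitochondrial thiolase gene, came next. Etfa lay above Acaa1a in 5 of 12 libraries and Acaa1a above Acaa2 in 6 of 12, so the order of these neighbours was not separated beyond their spread. Ppara took place 23 of 35 at 8.49 ± 2.10. The lowest member was Pdk4, at 0.906 ± 0.976, which encodes a kinase that turns off pyruvate dehydrogenase. Copies of near-identical sequence can share reads: the coding sequences of Acaa1a and Acaa1b were 96.5% identical, and those of Acot1 and Acot2 95.6%. Of the 50-base windows of Acaa1a, 37.9% were present unchanged in Acaa1b, and 43.6% of those of Acot1 in Acot2. The counts of these 4 genes are therefore uncertain as to which copy they belong.

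**Figure D1:**
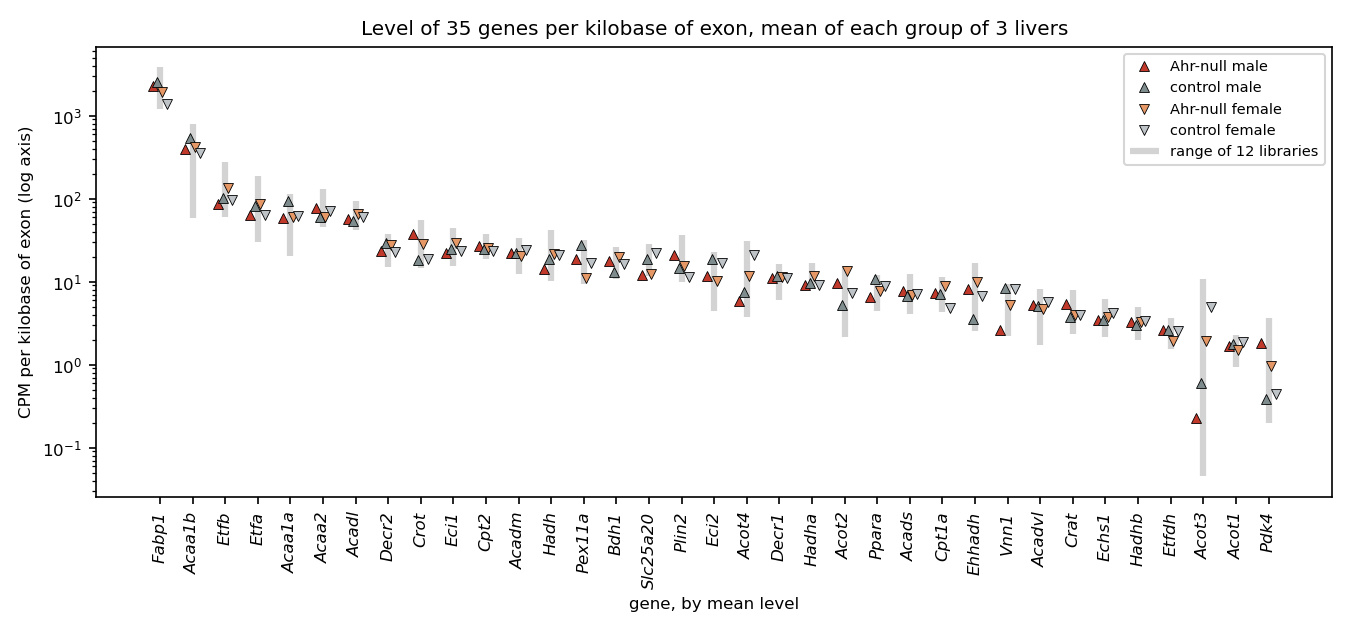
Levels of the 35 genes, ordered by their mean, in CPM per kilobase of exon on a log axis. Points are the means of the groups of genotype and sex, and bars give the range over all libraries. Fabp1 lies above all other members in every library, and Pdk4 is lowest on average.

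The comparison of Ahr-null with control livers asks which of these genes change with loss of the receptor, and 1 passed the test. Averaged over the sexes, Vnn1 fell by 1.15 ± 0.20 on the log2 scale (SE; edgeR adjusted p = 0.0186) and the other 34 members did not pass, so 1 of 35 was called, against 1.06% of the 13641 genes tested. The fold changes of the 35 members ran from -1.33 to 1.70 with a median of 0.03, the median of all genes being 0.04, and 18 were positive and 17 negative. In the 10 libraries without neural transcripts 10 members were positive and 25 negative with a median of -0.15 (0.03 over all genes), and with library size alone 28 were positive and 7 negative with a median of 0.56 (0.53 over all genes). At an unadjusted p under 0.05 there were 9 members (25.7%, against 15.3% of all genes), 4 of them higher (against 7.84% of all genes) and 5 lower (7.47%) in Ahr-null livers. Those higher were Pdk4, Crot, Ehhadh and Acot2, and those lower were Vnn1, Slc25a20, Pex11a, Ppara and Eci2. A lower level in whole liver can come from fewer cells of a type or from less RNA per cell, which cannot be told apart here. Without the 2 libraries with neural transcripts 2 members were called, Vnn1 and Slc25a20, against 3.17% of all genes. DESeq2 called 3 (Vnn1, Slc25a20 and Pex11a, against 3.76%), an additive model 2 (Vnn1 and Slc25a20, against 1.13%) and a model of genotype alone 0 (0.586%). With libraries scaled by their size alone, which raised the median of all genes to 0.53, 4 members were called as higher (Pdk4, Crot, Ehhadh and Acot2, against 7.72% of all genes) and Vnn1 was not.

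**Figure D2:**
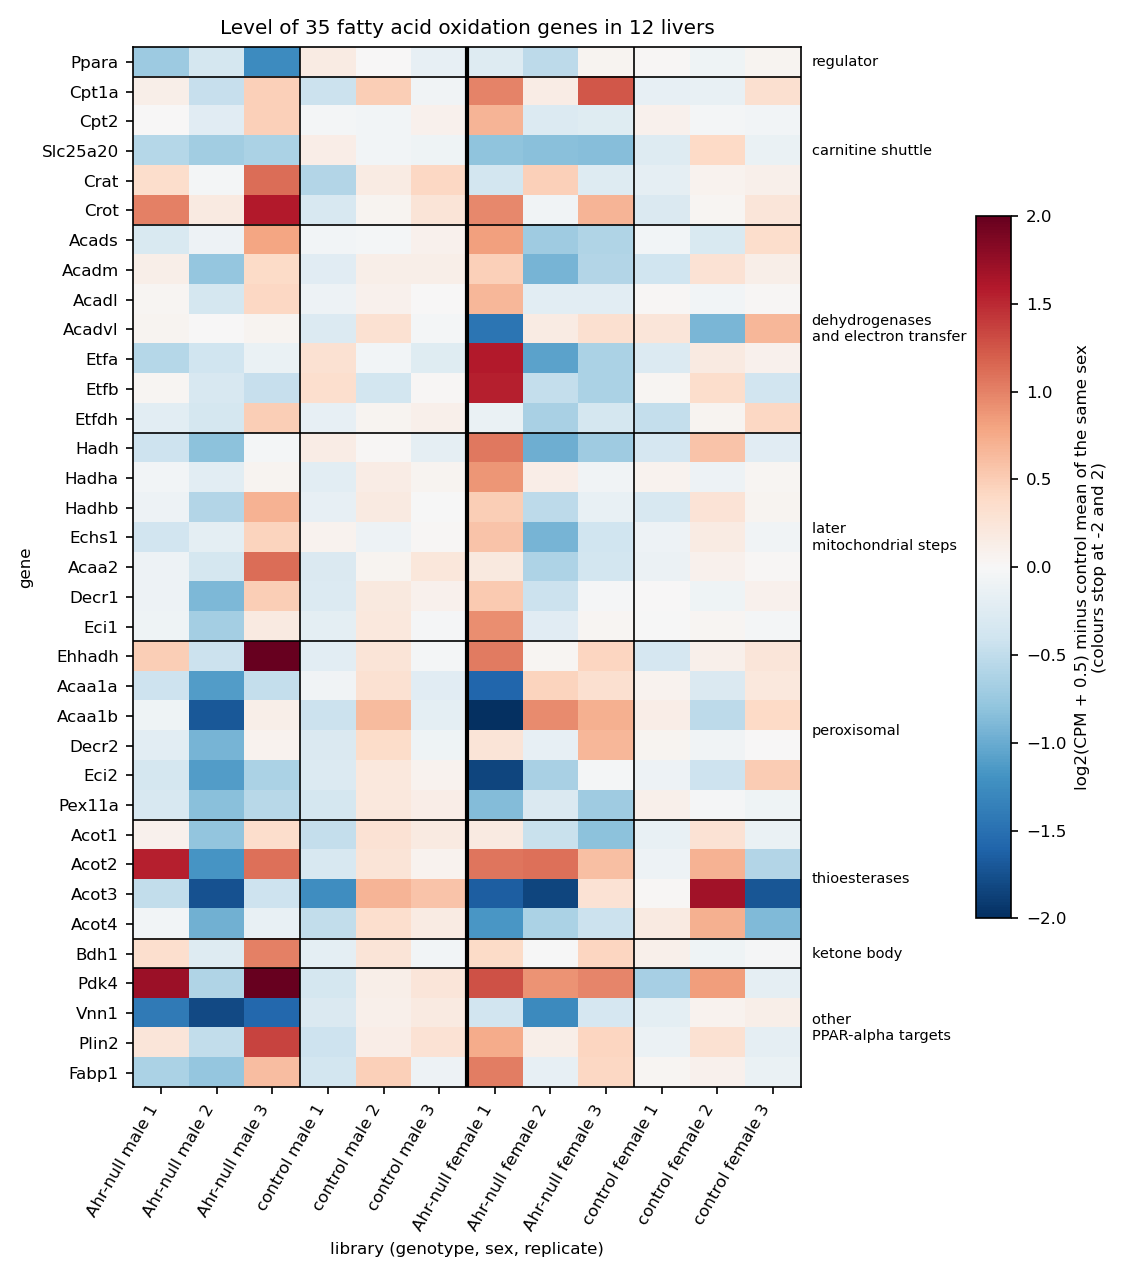
Log2 level of each gene (rows, by role) in each of the 12 libraries (columns, Ahr-null left of control within each sex) minus the control mean of the same sex, with colours that stop at -2 and 2. Most genes are low in Ahr-null male replicate 2, where 31 of 35 lie below the control males, and Slc25a20 and Vnn1 are low in all 6 Ahr-null livers.

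Ppara, the gene of the receptor (chr15:85734983-85802819, GRCm38), had 24.8, 32.5 and 16.97 CPM in Ahr-null males, against 46.3, 41.7 and 36.8 CPM in control males. All 3 Ahr-null males were below all 3 control males. Ahr-null females had 28.8, 23.7 and 35.8 CPM and control females 35.1, 32.5 and 35.9 CPM, and these groups overlapped. The averaged log2 fold change of -0.49 ± 0.19 did not pass (edgeR adjusted p = 0.235). It was -0.75 ± 0.27 in males (adjusted p = 0.659) and -0.23 ± 0.27 in females (adjusted p = 0.730).

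In the carnitine shuttle the genes did not share a direction. Slc25a20 (chr9:108662088-108684641) encodes the translocase that exchanges acylcarnitine for carnitine across the inner mitochondrial membrane. It had 61.2, 56.3 and 58.4 CPM in Ahr-null males, against 100.4, 88.0 and 86.0 CPM in control males. Ahr-null females had 60.4, 59.1 and 58.7 CPM, against 88.2, 139 and 96.7 CPM in control females. The Ahr-null livers were tightly grouped and lay below all controls of their sex. Its averaged log2 fold change was -0.75 ± 0.17, just short of the threshold (edgeR adjusted p = 0.0589), and 4 of 24 alternatives called it. DESeq2 gave an adjusted p of 4.27e-05, and edgeR gave 0.0431 with the 2 libraries with neural transcripts left out, 0.0197 with Ahr-null female replicate 1 alone left out and 0.0485 in an additive model of genotype and sex. Over the omissions of 1 library the adjusted p reached 0.176, and with library size alone the fold change was -0.22 (adjusted p = 0.491).

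Crot encodes the octanoyltransferase that prepares chain-shortened acyl groups for export from peroxisomes. It had 200.3, 113 and 299.5 CPM in Ahr-null males and 79.6, 103 and 119.5 CPM in control males. Replicates 1 and 3 of the Ahr-null males were above the controls and replicate 2 was among them. In females Crot had 199, 97.2 and 164 CPM in Ahr-null livers and 83.3, 104 and 121 CPM in controls, again with overlap. Its averaged log2 fold change was 0.80 ± 0.27 (edgeR adjusted p = 0.185). Cpt1a encodes the transferase of the outer membrane at which entry into mitochondria is controlled. Its level was 57.2, 38.1 and 73.9 CPM in Ahr-null males and 39.2, 74.7 and 50.2 CPM in control males, and 73.6, 40.9 and 87.4 CPM in Ahr-null females and 32.8, 33.1 and 46.1 CPM in control females. Both pairs of groups overlapped, and the fold change was 0.04 ± 0.36 in males and 0.85 ± 0.36 in females and neither passed (adjusted p = 0.302 in females). Cpt2, its partner in the inner membrane, had 50.3 to 81.7 CPM in Ahr-null males and 56.8 to 62.7 CPM in control males, with an averaged fold change of 0.12 ± 0.21 (adjusted p = 0.850). In females Cpt2 had 89.3 CPM in Ahr-null replicate 1 and 45.5 and 46.5 CPM in replicates 2 and 3, against 53.4 to 59.1 CPM in controls. Crat, the acetyltransferase of the group, gave 0.26 ± 0.25 (adjusted p = 0.684).

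The core of mitochondrial beta-oxidation showed no difference that passed the test. For the 7 genes of acyl-CoA dehydrogenases and electron transfer (Acads, Acadm, Acadl, Acadvl, Etfa, Etfb and Etfdh) the averaged log2 fold changes lay between -0.20 and 0.11, and none had an unadjusted p under 0.05. The 7 genes of the later and auxiliary steps (Hadh, Hadha, Hadhb, Echs1, Acaa2, Decr1 and Eci1) lay between -0.19 and 0.15, likewise with none under 0.05. Standard errors of these 14 genes ran up to 0.38, so modest changes in either direction were not detectable. These small values rested in part on the 2 libraries with neural transcripts. In the other 10 libraries Hadh, which oxidises the hydroxyacyl intermediate, stood at -0.60 ± 0.23 (unadjusted p = 0.0195, edgeR adjusted p = 0.158), against -0.19 with all libraries, and Acadm at -0.44 ± 0.23, against -0.13. In those 10 libraries 13 of the 14 genes had negative values, Etfa and Hadh had an unadjusted p under 0.05, and 0 of the 14 passed. Hadha and Hadhb, the subunits of the trifunctional protein, lie on opposite strands of chromosome 5. Their starts were 273 bases apart by the RefSeq entries used for promoters, and at 30155162 and 30155248 in GENCODE. Their averaged fold changes were 0.15 ± 0.20 and 0.04 ± 0.25.

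Ahr-null female replicate 1 stood apart in the most abundant genes of this core. Etfa had 346 CPM there, against 54.8 and 74.4 CPM in Ahr-null female replicates 2 and 3 and 95.8, 130.4 and 123 CPM in control females. Etfb had 320.4 CPM in that library, against 78.6 and 70.1 CPM in the other Ahr-null females and 112, 139 and 83.6 CPM in control females. For both genes the Ahr-null females thus lay on either side of the controls. In males Etfa had 101, 113 and 137 CPM in Ahr-null livers and 185, 144 and 126 CPM in controls, and Etfb had 119.6, 94.0 and 84.9 CPM in Ahr-null livers and 148, 91.0 and 119 CPM in controls. Without the 2 libraries with neural transcripts the averaged fold change of Etfa was -0.51 ± 0.18 (edgeR adjusted p = 0.142), against 0.03 ± 0.38 with all libraries, and that of Etfb -0.31 ± 0.19 (adjusted p = 0.380), against 0.11 ± 0.35. With Ahr-null female replicate 1 alone left out, the averaged fold changes were -0.60 for Etfa and -0.41 for Etfb. Acaa2 had 83.8, 70.7 and 196 CPM in Ahr-null males and 73.6, 93.5 and 106 CPM in control males, with the high value in replicate 3, and Ahr-null and control females overlapped at 69.6 to 123 CPM and 99.2 to 114 CPM. Eci1, an isomerase for unsaturated chains, had 49.4, 32.5 and 59.2 CPM in Ahr-null males and 45.9, 61.0 and 51.4 CPM in control males, and 94.8, 42.5 and 51.3 CPM in Ahr-null females and 49.4, 51.2 and 48.5 CPM in control females. Neither gene passed (averaged fold changes 0.07 ± 0.27 and 0.09 ± 0.23, adjusted p = 0.942 and 0.906).

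Peroxisomal genes differed among themselves. Pex11a (chr7:79735957-79743131), whose product elongates peroxisomes before they divide, had 69.9, 48.7 and 59.9 CPM in Ahr-null males, against 69.0, 102 and 96.2 CPM in control males. In females it had 29.5, 44.1 and 32.8 CPM in Ahr-null livers, against 58.3, 53.5 and 50.7 CPM in controls. The female groups did not overlap, and in males 1 Ahr-null liver lay just above the lowest control. The averaged log2 fold change was -0.60 ± 0.19 (edgeR adjusted p = 0.158), and it passed with DESeq2 (adjusted p = 0.0229). Eci2 encodes an isomerase that moves the double bond of unsaturated acyl-CoA. Its level was 79.8, 47.1 and 65.9 CPM in Ahr-null males and 84.9, 118 and 107 CPM in control males, with no overlap, and 24.7, 57.2 and 87.1 CPM in Ahr-null females and 83.1, 67.3 and 128 CPM in control females, with overlap. Eci2 gave -0.70 ± 0.29 (adjusted p = 0.268).

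Ehhadh encodes the bifunctional enzyme of the peroxisomal spiral. It had 14.99, 7.60 and 50.2 CPM in Ahr-null males, against 8.92, 12.5 and 10.2 CPM in control males. Ahr-null males thus held both the highest and the lowest male liver. In females Ehhadh had 41.1, 20.3 and 26.6 CPM in Ahr-null livers and 15.5, 21.1 and 23.4 CPM in controls, and the averaged log2 fold change was 0.88 ± 0.37 (edgeR adjusted p = 0.283), or 0.34 without Ahr-null male replicate 3. The thiolase Acaa1b had 935, 307 and 1085 CPM in Ahr-null males and 737, 1542 and 869 CPM in control males, and 116, 1284 and 1094 CPM in Ahr-null females and 731, 461 and 877 CPM in control females. Its near-copy Acaa1a had 304, 187 and 290.3 CPM in Ahr-null males, all below the 385, 497 and 345 CPM of control males, and 89.4, 364 and 334 CPM in Ahr-null females, on both sides of the 282, 221 and 311 CPM of control females. Both copies were lowest in Ahr-null female replicate 1, the library in which Etfa and Etfb were highest. Of all genes tested, 27.7% were highest and 29.2% lowest in that library, so extreme values there were not particular to these genes. Averaged fold changes were -0.08 ± 0.49 for Acaa1b and -0.35 ± 0.31 for Acaa1a, and Decr2, a peroxisomal reductase gene, gave -0.02 ± 0.22 (adjusted p = 0.962, 0.650 and 0.983).

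The 4 thioesterase genes lie side by side on chromosome 12 in the order Acot2, Acot1, Acot4 and Acot3, on 1 strand, and encode enzymes that split acyl-CoA into fatty acid and CoA. Acot2, the mitochondrial member, had 34.3, 4.73 and 25.0 CPM in Ahr-null males, against 9.01, 13.6 and 11.9 CPM in control males. Replicates 1 and 3 were above every control male and replicate 2 below every one. Females had 32.0, 32.8 and 23.0 CPM in Ahr-null livers and 13.9, 24.5 and 9.82 CPM in controls, with 1 control inside the Ahr-null range. The averaged log2 fold change was 0.88 ± 0.38 (edgeR adjusted p = 0.287), and over the omissions of 1 library it ran from 0.64 without Ahr-null male replicate 1 (adjusted p = 0.537) to 1.11 without Ahr-null male replicate 2 (0.0384). Acot1, its cytosolic near-copy, gave -0.21 ± 0.26 (adjusted p = 0.760). The peroxisomal members gave -0.61 ± 0.29 for Acot4 and -1.33 ± 0.65 for Acot3 (adjusted p = 0.333 and 0.356), and their levels by library are given with the sex differences.

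Vnn1 (chr10:23894688-23905343) encodes a pantetheinase, an enzyme that frees cysteamine and pantothenate, the vitamin of CoA. It had 7.18, 5.35 and 6.35 CPM in Ahr-null males, against 16.2, 21.4 and 22.7 CPM in control males. Ahr-null females had 14.97, 7.82 and 15.5 CPM, against 17.1, 20.6 and 21.2 CPM in control females. All 6 Ahr-null livers were below the controls of their sex, by a wide gap in males and a narrow one in females. Its averaged fall, given above, was kept in the 10 libraries without neural transcripts (-1.26 ± 0.19, edgeR adjusted p = 0.00464). Leaving out 1 library ended the call in 6 of 12 cases: omitting replicate 1 or 3 of the Ahr-null males gave an adjusted p of 0.0584 or 0.0665, omitting replicate 2 or 3 of the control males 0.0646 or 0.0635, and omitting replicate 2 or 3 of the control females 0.0563 or 0.0665. Over the 12 omissions the fold change ran from -1.23 to -1.02.

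Pdk4 had 5.48, 0.698 and 12.99 CPM in Ahr-null males, against 0.926, 1.47 and 1.66 CPM in control males. These levels stand for 139, 9 and 329 counts in Ahr-null males and 11, 19 and 26 counts in control males. In females it had 4.04, 3.01 and 3.20 CPM in Ahr-null livers, all above the 0.690, 2.84 and 1.17 CPM of controls. Its averaged log2 fold change of 1.70 ± 0.54 did not pass (edgeR adjusted p = 0.164), and was 1.19 without Ahr-null male replicate 3 (adjusted p = 0.405) and 1.96 without Ahr-null male replicate 2 (0.0188), in a range of 1.19 to 2.06 over the 12 omissions. Plin2, which encodes a coat protein of lipid droplets, had 58.8, 35.4 and 128 CPM in Ahr-null males and 37.2, 54.4 and 60.8 CPM in control males, and 66.4, 43.1 and 53.7 CPM in Ahr-null females and 36.4, 49.1 and 34.97 CPM in control females (0.49 ± 0.29, adjusted p = 0.448, and 0.17 without Ahr-null male replicate 3). Fabp1, whose promoter holds the direct repeat printed above, gave 0.17 ± 0.31 (adjusted p = 0.854). Bdh1, the dehydrogenase that makes beta-hydroxybutyrate, gave 0.36 ± 0.22 (adjusted p = 0.468).

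**Figure D3:**
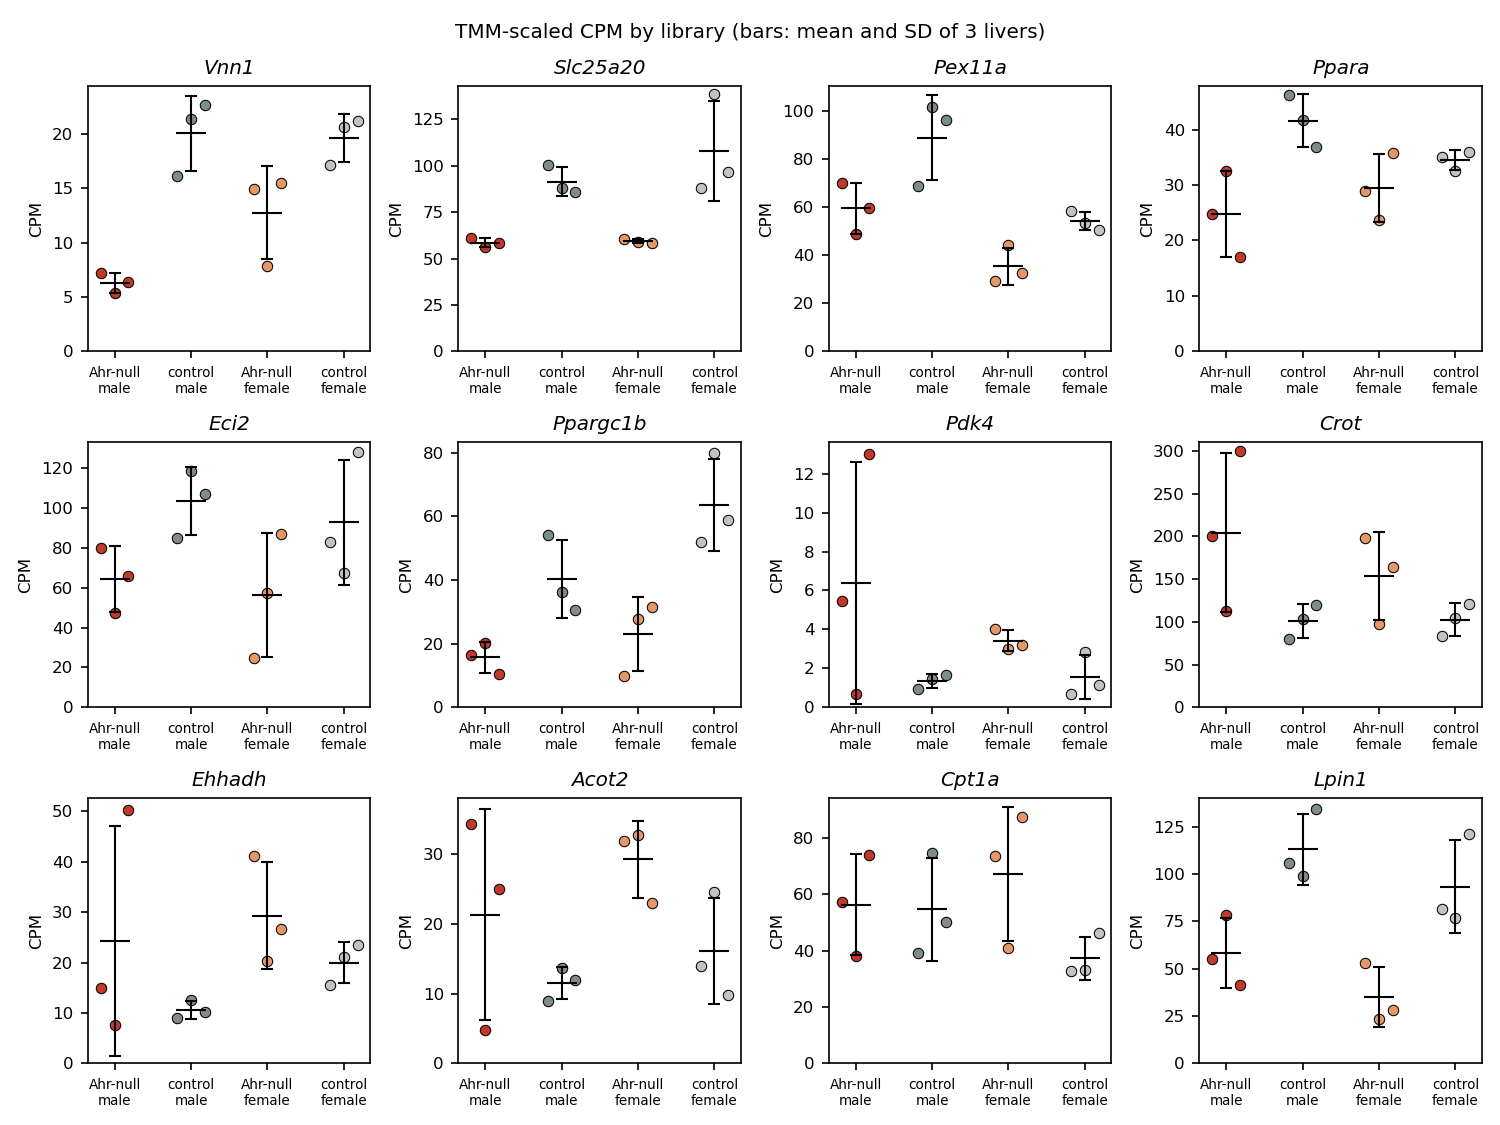
TMM-scaled CPM of 12 genes in each library by group, with the mean and SD of 3 livers. Vnn1 and Slc25a20 are lower in all Ahr-null livers than in controls of the same sex, while Pdk4, Crot, Ehhadh and Acot2 spread widely among Ahr-null males.

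**Figure D4:**
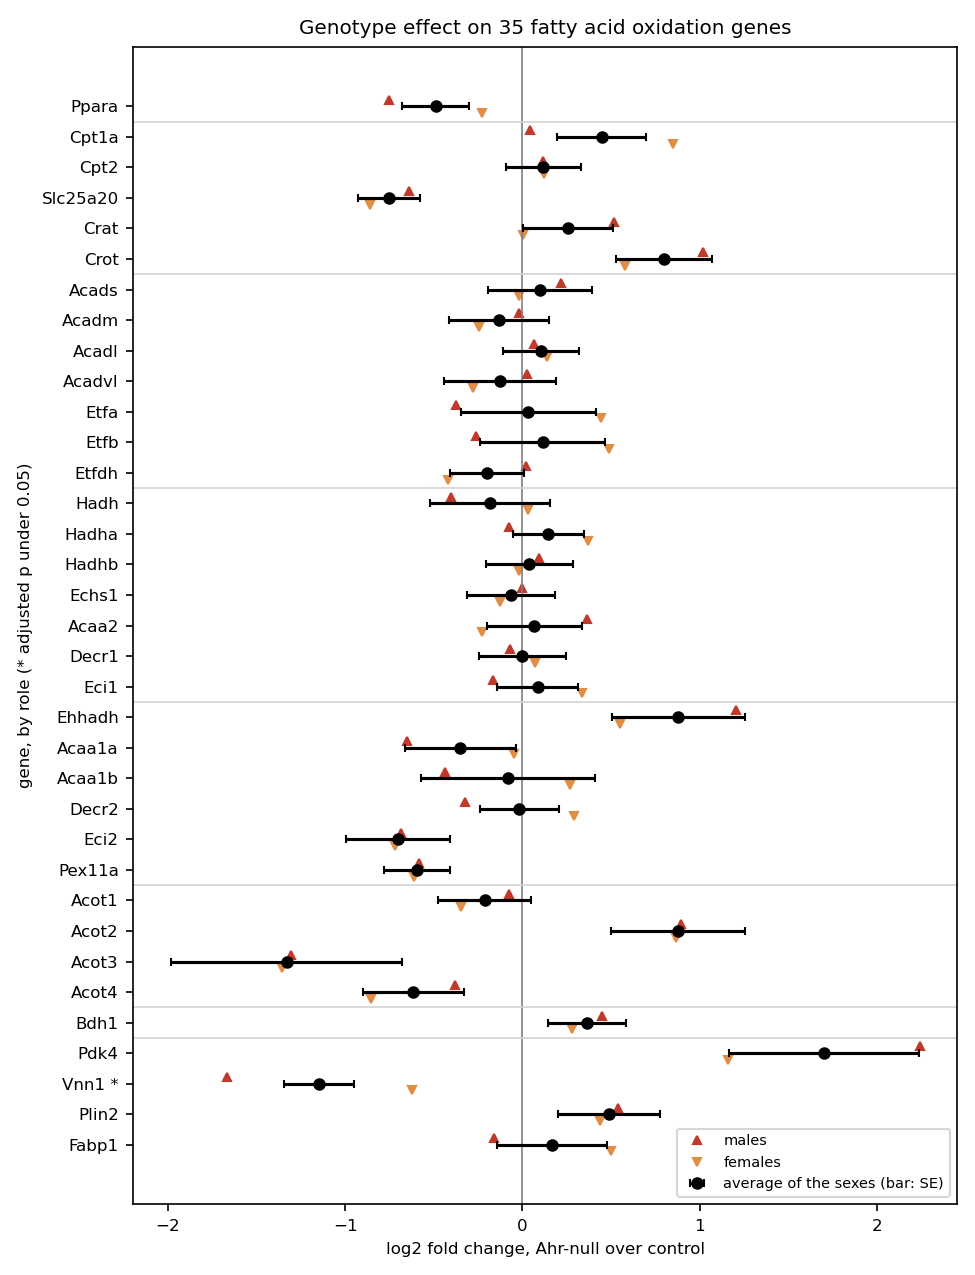
Averaged Ahr-null minus control log2 fold change of each of the 35 genes with its standard error, grouped by role. Vnn1 is the member called at an adjusted p under 0.05. The genes of mitochondrial beta-oxidation (dehydrogenases, electron transfer and later steps) lie close to 0 with all 12 libraries. Without the 2 libraries with neural transcripts Hadh, Etfa and Acadm of these genes stand at -0.60, -0.51 and -0.44.

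In males taken alone 0 of 35 members were called by edgeR (0.0367% of all genes were), 7 having an unadjusted p under 0.05 (20%, against 5.81%). DESeq2 called 1, Vnn1 (against 0.601%), and the limma fits called 0. Vnn1 was nearest at -1.67 ± 0.28 (edgeR adjusted p = 0.0815), followed by Pdk4 at 2.24 ± 0.76 (adjusted p = 0.576). Vnn1 passed in males in the 10 libraries without neural transcripts (edgeR adjusted p = 0.0178; 0.198% of all genes called), when replicate 1 or 2 of the Ahr-null females was left out (0.0126 and 0.0320) and when the 6 male libraries were fitted alone (0.02298; 0.183% called). Ahr-null and control males did not overlap for 5 members, all lower in Ahr-null males (14.3%, against 7.34% of all genes): Ppara, Slc25a20, Acaa1a, Eci2 and Vnn1. No member was higher without overlap, against 6.55% of all genes. Ahr-null male replicate 2 alone had 0 members above the control males, so this number could only be 0. Replicates 1 and 3 had 5 and 18 members above. In the 10 libraries without neural transcripts, the count lower in Ahr-null males was 9 (25.7%, against 12.1%). The count higher was 0 (against 10.9%), again fixed by replicate 2, which had 0 members above the remaining control males.

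Ahr-null livers of each sex differed from each other more in these genes than controls did. The SD of log2 levels over the 3 livers had a median of 0.496 over the members in Ahr-null males and 0.265 in control males, while over all genes it was 0.300 in Ahr-null males and 0.258 in control males. In females the median over the members was 0.516 in Ahr-null livers and 0.264 in controls, and that over all genes was 0.539 in Ahr-null livers and 0.261 in controls. Ahr-null male replicate 2 had 31 of 35 members below the range of control males and 0 above, where 25.9% of all genes lay below and 25.8% above. The 4 members inside the range were Crat, Crot, Acadvl and Etfb. Its members had a median of -0.58 on the log2 scale relative to the control male mean. Replicate 3 stood on the other side, with 18 members above and 7 below (29.9% and 32.8% of all genes) and a median of 0.39. Replicate 1 had 5 above and 11 below (27.8% and 28.5% of all genes), the 5 being Crot, Ehhadh, Acot2, Bdh1 and Pdk4. The number below in replicate 2 was 30 with RLE scaling (against 24.8% of all genes) and 31 without the mitochondrially encoded genes (26.9%). With library size alone it was 22 (21.2%). Without control male replicate 1 it was 32 (36.1%), but leaving out a control can only narrow the control range, so that number could not fall.

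Other measures also differed between these 3 livers. The mitochondrially encoded share was 38.9%, 52.7% and 30.4% in replicates 1, 2 and 3, against 57.3%, 52.3% and 46.7% in control males. The TMM factor was 1.46, 0.944 and 1.53 in Ahr-null males, against 0.798, 0.933 and 1.11 in control males. Dbp, an output gene of the circadian clock, had 1.97, 1.86 and 0.987 CPM in Ahr-null males and 44.5, 70.1 and 73.2 CPM in control males, so it was low in all 3 Ahr-null males. The part of the mitochondrial share and of clock phase in the results of males was not tested.

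In females 0 of 35 members were called by edgeR, against 0.161% of all genes, DESeq2 called 1, Slc25a20 (against 3.03%), and the limma fits called 0. There were 4 at an unadjusted p under 0.05 (11.4%, against 14.4%): Slc25a20 at -0.86 ± 0.25, Pex11a at -0.61 ± 0.26, Vnn1 at -0.62 ± 0.28 and Cpt1a at 0.85 ± 0.36 (adjusted p = 0.173, 0.312, 0.329 and 0.302). The female groups did not overlap for 3 members lower in Ahr-null livers (Slc25a20, Pex11a and Vnn1, or 8.57%, against 9.86% of all genes) and for 1 that was higher (Pdk4, or 2.86%, against 9.22%). Slc25a20 and Vnn1 were thus lower without overlap in both sexes (5.71%, against 1.62% of all genes). Ahr-null female replicate 1 had 22 members above the control females and 10 below, where 40% and 41.3% of all genes lay outside on these sides. Replicates 2 and 3 had 6 and 11 members above and 22 and 14 below (31.4% and 32.8% of all genes above, 32.3% and 31.1% below). Without the 2 libraries with neural transcripts, 3 members were higher without overlap (Acaa1a, Acaa1b and Pdk4, or 8.57%, against 20.5% of all genes) and 13 were lower (37.1%, against 21.7%), among them Cpt2, Acads, Acadm, Acadl, Etfa, Etfb, Hadh, Echs1 and Acaa2 of the mitochondrial pathway. None of these 9 passed the female test or the averaged test in that fit. Nearest in females were Etfa at -0.83 ± 0.27 and Hadh at -0.89 ± 0.33 (edgeR adjusted p = 0.108 and 0.143).

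The genotype effect was not shown to differ between the sexes for any member. In the test of the difference 0 of 35 were called, against 0.00733% of all genes, and 1 had an unadjusted p under 0.05 (2.86%, against 4.6%), which was Vnn1. DESeq2 called 0 members (0.129% of all genes), and so did the limma fits. Vnn1 had a male minus female difference in fold change of -1.04 ± 0.39 (edgeR adjusted p = 0.951). Cpt1a, Decr2 and Ppara followed at -0.81 ± 0.50, -0.61 ± 0.45 and -0.52 ± 0.38 (adjusted p = 0.999 each). Decr2 had 65.9, 40.0 and 80.5 CPM in Ahr-null males and 62.6, 98.4 and 72.2 CPM in control males, and 72.2, 53.9 and 96.4 CPM in Ahr-null females and 63.1, 57.9 and 60.9 CPM in control females, so that both pairs overlapped.

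Between males and females 0 of 35 members were called in Ahr-null livers (0.279% of all genes were) and 0 in controls (0.352%), with 4 and 3 members at an unadjusted p under 0.05 (against 8.68% and 5.79%). DESeq2 called 0 members in Ahr-null livers (1.47% of all genes) and 1 in controls, Acot4 (0.972%), and the limma fits called 0. The genes of the peroxisomal thioesterases Acot4 and Acot3 were lower in males without overlap in both genotypes (2 members, against 1.14% of all genes), though neither passed with edgeR. Acot4 had 47.1, 25.0 and 44.2 CPM in Ahr-null males, against 56.4, 81.4 and 94.3 CPM in Ahr-null females. Control males had 34.7, 61.7 and 54.7 CPM, against 143, 207 and 68.9 CPM in control females. The male minus female log2 fold change of Acot4 was -0.997 ± 0.41 in Ahr-null livers and -1.47 ± 0.41 in controls (edgeR adjusted p = 0.531 and 0.324).

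Acot3, its neighbour, had 1.07, 0.155 and 1.14 CPM in Ahr-null males, against 3.21, 2.77 and 13.8 CPM in Ahr-null females. In controls it had 0.421, 3.02 and 2.74 CPM in males, against 11.4, 36.8 and 3.08 CPM in females. The narrowest gap was that of the controls, where the highest male and the lowest female nearly met. Its fold changes were -2.97 ± 0.97 in Ahr-null livers and -3.02 ± 0.94 in controls (edgeR adjusted p = 0.387 and 0.468), and the lowest library held 2 counts. They were -1.82 in Ahr-null livers without Ahr-null female replicate 3 and -1.80 in controls without control female replicate 2. Pex11a, whose values are given above, was higher in males without overlap in both genotypes (1 member, against 1.48% of all genes), at 0.75 ± 0.26 in Ahr-null livers and 0.72 ± 0.26 in controls (adjusted p = 0.446 and 0.669).

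Vnn1 was lower in Ahr-null males than in Ahr-null females without overlap, at -1.01 ± 0.28 (edgeR adjusted p = 0.234), and in controls its male minus female fold change was 0.03 ± 0.27 (adjusted p = 0.999). Fabp1 had 889.6, 799.9 and 2108 CPM in Ahr-null males and 1532, 672 and 1013 CPM in Ahr-null females, with overlap. In controls it had 1065, 1901 and 1279 CPM in males, all above the 779.7, 802 and 693 CPM of females, a fold change of 0.90 ± 0.44 (adjusted p = 0.882). Members that were higher in males without overlap numbered 1 in Ahr-null livers (Pex11a, 2.86%, against 4.83% of all genes) and 4 in controls (11.4%, against 9.38%), and those lower numbered 3 in Ahr-null livers (8.57%, against 6.38%) and 5 in controls (14.3%, against 9.19%). In the 10 libraries without neural transcripts those higher in males numbered 6 in Ahr-null livers (17.1%, against 14.8%) and 11 in controls (31.4%, against 16.2%), and those lower 6 in Ahr-null livers (17.1%, against 16.4%) and 6 in controls (17.1%, against 16.8%).

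**Figure D5:**
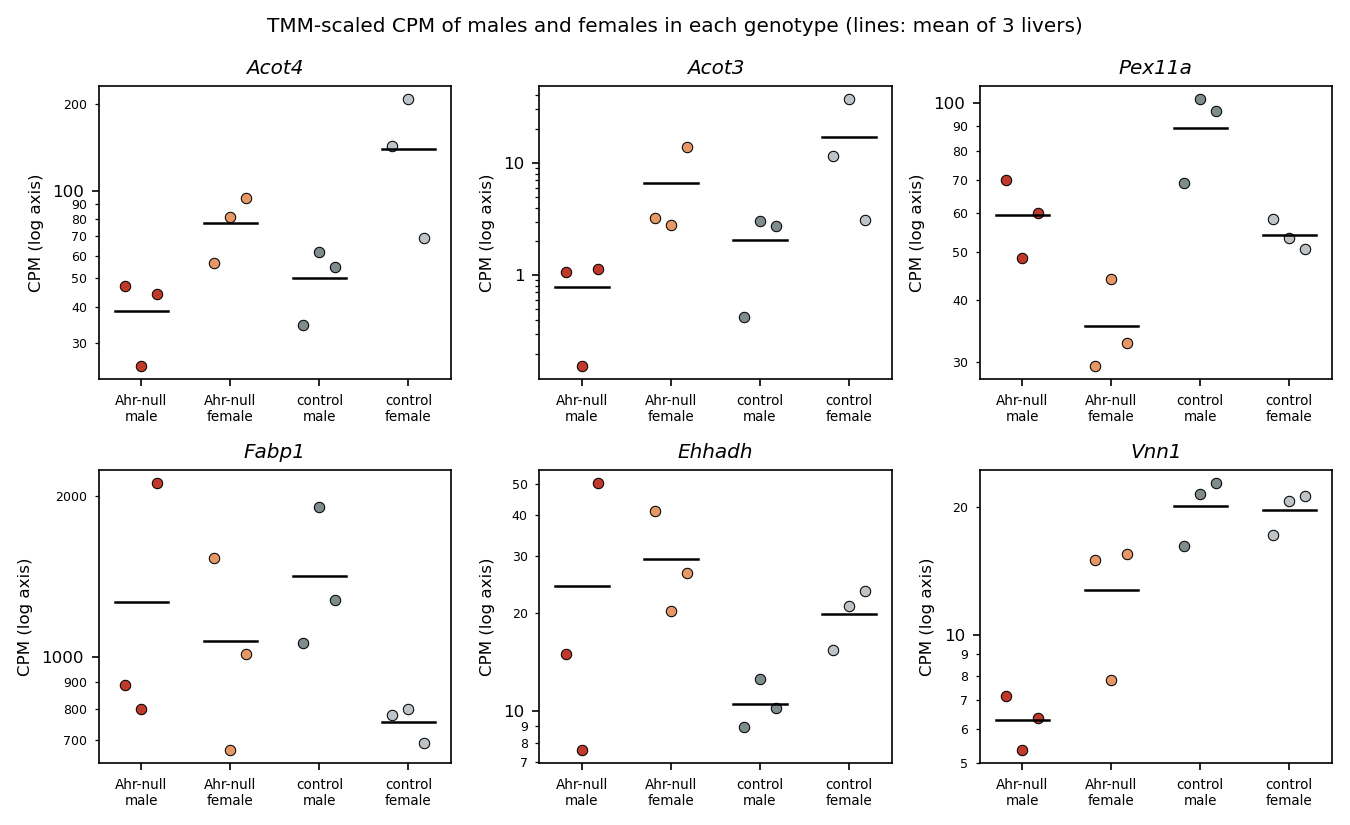
TMM-scaled CPM of 6 genes by library, with male left of female within each genotype and lines at the group means. The axes are logarithmic. Acot3 and Acot4 are lower and Pex11a higher in males than in females of both genotypes, and Vnn1 is lower in the 3 Ahr-null males than in the 3 Ahr-null females. None of these sex differences passed with edgeR.

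Genes around the members were counted in lists chosen by function, for the genotype effect averaged over the sexes. Of 24 PPAR partners and coregulators edgeR called 2 (8.33%, against 1.06% of all genes), both lower, with a median log2 fold change of -0.20 (0.04 over all genes). DESeq2 called 5 of them, Fgfr1 as higher and Klb, Lpin1, Ncor1 and Ppargc1b as lower (20.8%, against 3.76% of all genes). Ppargc1b, a coactivator of nuclear receptors in oxidative metabolism, had 16.5, 20.1 and 10.5 CPM in Ahr-null males and 54.1, 36.3 and 30.5 CPM in control males, and 9.83, 27.6 and 31.5 CPM in Ahr-null females and 52.0, 79.9 and 58.9 CPM in control females. All Ahr-null livers lay below the controls of their sex, and the averaged fold change was -1.41 ± 0.29 (edgeR adjusted p = 0.0382). Lpin1, a phosphatidate phosphatase that also acts with PPAR-alpha as a coactivator, had 55.0, 78.2 and 41.6 CPM in Ahr-null males and 106, 98.9 and 134 CPM in control males, and 53.3, 23.6 and 28.1 CPM in Ahr-null females and 81.3, 77.0 and 121 CPM in control females. It too was lower without overlap in both sexes, at -1.19 ± 0.25 (adjusted p = 0.0461). The call of Ppargc1b was lost without any 1 of 9 libraries (adjusted p between 0.0665 and 0.120) and kept without Ahr-null male replicate 2 or Ahr-null female replicate 1 or 3. That of Lpin1 was lost without any 1 of 10 libraries (0.0819 to 0.130) and kept without Ahr-null male replicate 2 or Ahr-null female replicate 1. Both calls held with the 2 libraries with neural transcripts left out and were lost with library size alone (-0.91 and -0.75, adjusted p = 0.0521 and 0.0926) and with genotype alone (0.0562 and 0.0794).

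Among 28 tested PPAR-alpha targets outside the 35 genes 0 were called, with a median of -0.24. At an unadjusted p under 0.05, 2 were higher and 7 lower (32.1%, against 15.3% of all genes). DESeq2 called 2, Cidec as higher and Fitm1 as lower (7.41%, against 3.76% of all genes). Fgf21, a fasting hormone of the liver, had 36.3, 4.58 and 34.3 CPM in Ahr-null males and 1.26, 2.40 and 3.63 CPM in control males, and 4.87, 36.9 and 3.87 CPM in Ahr-null females and 1.52, 4.15 and 0.749 CPM in control females. Its averaged fold change of 3.11 ± 0.69 had an edgeR adjusted p of 0.0520, which ran from 0.0176 to 0.153 over the omissions of 1 library. Of 14 tested Cyp4 genes, most of which hydroxylate fatty acids or their derivatives, 0 were called and 3 had an unadjusted p under 0.05 (21.4%, against 15.3%). DESeq2 called Cyp4a31 as higher (7.14%, against 3.76%). Cyp4a14 had 138, 6.98 and 210.0 CPM in Ahr-null males and 18.1, 45.2 and 55.9 CPM in control males, and Cyp4a10 had 249, 42.2 and 280.1 CPM in Ahr-null males and 176, 322 and 296 CPM in control males. Fgf21, Cyp4a10 and Cyp4a14 were thus, like Pdk4, Crot, Ehhadh and Acot2, lower in Ahr-null male replicate 2 than in replicates 1 and 3. Set against the control males, which is another measure, Fgf21 lay above them in replicate 2, Crot among them and the others of these genes below. A low level there was not particular to these genes, as 31 of the 35 members lay below the control males in that library (against 25.9% of all genes). The averaged fold changes were 1.32 ± 0.61 for Cyp4a14 and -0.41 ± 0.39 for Cyp4a10 (adjusted p = 0.326 and 0.672). Cyp4a12a and Cyp4a12b, named here after their values were seen, passed as higher in males in both genotypes (6.27 ± 0.65 and 5.71 ± 0.68 in controls, adjusted p = 0.000552 and 0.00141).

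No gene was called among 33 genes of peroxisomal fatty acid handling and biogenesis (median -0.21), 23 of fatty acid uptake and activation (0.15), 9 of ketone body metabolism (-0.11), 19 of other mitochondrial acyl-CoA enzymes (-0.16) and 18 of the fasting and feeding response (0.12). At an unadjusted p under 0.05 these lists held 4, 5, 2, 6 and 4 genes (12.1%, 21.7%, 22.2%, 31.6% and 22.2%, against 15.3% of all genes). DESeq2 called Abcd4, Acsl3, Acad11 and Igfbp1 among them, and these genes are named because it called them. They made up 3.03%, 4.17%, 5.26% and 5.56% of their lists, against 3.76% of all genes. Limma on the deposited values called Acad11 (5.26% of its list, against 1.13% of all genes). Of 18 clock genes edgeR called 3 (16.7%, against 1.06% of all genes), all lower (Bhlhe41, Dbp and Per3). DESeq2 called 8 of them, 1 higher and 7 lower (44.4%, against 3.76% of all genes). By sex, edgeR called 2 in males (11.1%, against 0.0367%) and 0 in females (against 0.161%). At an unadjusted p under 0.05 there were 83.3% in males (against 5.81%) and 16.7% in females (against 14.4%). Dbp had 10.8, 53.8 and 128 CPM in Ahr-null females and 50.9, 49.0 and 65.5 CPM in control females, with overlap. The lists share some genes and were chosen with results of these data known, so their counts are descriptions.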

How the data were processed

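RNA-seq of total RNA was measured in 12 livers, 3 for each combination of genotype and sex. The authors deposited raw whole-number counts per gene and, as the deposited table is titled, DESeq2 values after a variance-stabilising transform, which approach log2 of the counts. Tools named in the submitters' processing notes are STAR 2.7.8, Trim Galore 0.6.5, FastQC 0.11.8 and DESeq2 1.28.1, and the build named is GRCm38. How reads were assigned to genes, with which annotation and strand setting, was not given in the sources used here. Overlapping genes and near-identical copies are therefore uncertain. Per the labels' protocols the average RIN was 7.0.

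From the counts, genes were filtered with filterByExpr by group, which left 13641, and tested with edgeR 4.0.16 in R 4.3.3 (TMM scaling, robust quasi-likelihood fit with 1 mean for each of 4 groups, 8 residual degrees of freedom). All tests were two-sided, adjusted over all genes tested by Benjamini-Hochberg, with calls under 0.05. Fold changes are log2 values with standard errors, positive where Ahr-null livers (or, between sexes, males) were higher. The 6 contrasts were the genotype effect averaged over the sexes and within each sex, the difference between those effects, and the sex difference within each genotype. Levels are mean ± SD where given so. A group range or overlap was read from the TMM-scaled CPM of 3 libraries. Log2 positions of libraries used a pseudocount of 0.5. Precision is limited by counting error for low genes and mostly by 3 livers per group. Replicate pairs differed far beyond counting noise, so no library was counted as a repeat of another.

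Alternatives were other scalings and filters, DESeq2 1.42.0, limma 3.58.1 (limma-voom, and limma on the deposited values), additive and genotype-only models, each sex alone, and leaving out libraries. Positions of single libraries under other scalings, overlap without the 2 libraries with neural transcripts, and the fold changes of genes outside the 35 were added after seeing the data. The edgeR procedure was checked on simulated counts. Levels by library are given for Ppara, for called members, for the 8 members with the smallest p in the averaged contrast and 4 in each other contrast, and for the 2 highest per kilobase of each role with at least 4 members, with Cpt2 by its range in part. Genes outside the 35 are named where called in the averaged contrast, besides Fgf21, Cyp4a10 and Cyp4a14, and some genes of that rule are not reported here. Members and lists were chosen with earlier results of these data known. Gene positions and exon lengths are from GENCODE for GRCm38, matched by Ensembl ID.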

Additional observations from a re-analysis of the deposited data

How the results depend on the processing

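Of 35 members, the number called for the averaged genotype effect was 1 (against 1.06% of all genes). It was 4 with library size alone (against 7.72%), 3 with DESeq2 (3.76%) and 2 without the 2 libraries with neural transcripts (3.17%). The additive model gave 2 (1.13%), genotype alone 0 (0.586%), and leaving out single libraries 0 to 3. The number was 0 without Ahr-null male replicate 1 or 3, control male replicate 2 or 3 or control female replicate 2 or 3. It was 3 with Ahr-null male replicate 2 left out (Acot2, Pdk4 and Vnn1, against 2.53% of all genes). With Ahr-null female replicate 1 left out it was 2 (against 4.82%). In males it was 0, and 1 with DESeq2 (0.601%), without the 2 libraries with neural transcripts (0.198%) and with the 6 male libraries alone (0.183%). It was 0 to 1 in males when single libraries were left out. In females and for sex in controls DESeq2 called 1 (3.03% and 0.972% of all genes) where edgeR called 0. The counts for the difference between sexes and for sex in Ahr-null livers stayed at 0 under all alternatives run. Vnn1 kept its negative averaged fold change under 24 alternatives and its call under 16 of them.

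Averaged fold changes near 0 changed sign. With library size alone they were 0.17 for Acaa1a, 0.45 for Acaa1b and 0.18 for Cyp4a10, and under that scaling the median of all genes was 0.53, against 0.04. Without the 2 libraries with neural transcripts they were 0.10 for Acaa1b, -0.11 for Acaa2, -0.0676 for Cpt2, -0.15 for Eci1, -0.51 for Etfa, -0.31 for Etfb and -0.0676 for Fabp1, and Acads, Acadl, Hadha, Hadhb and Acadvl also changed sign (-0.24, -0.08, -0.06, -0.15 and 0.02). With limma-voom and limma on the deposited values they were -0.0246 and -0.00947 for Acaa2, -0.19 and -0.19 for Etfa, and -0.0357 and -0.0372 for Etfb. Leaving out single libraries gave ranges of -0.31 to 0.20 for Acaa1b, -0.23 to 0.20 for Acaa2, -0.0608 to 0.20 for Cpt2, -0.11 to 0.20 for Eci1, -0.60 to 0.24 for Etfa, -0.41 to 0.29 for Etfb and -0.12 to 0.31 for Fabp1. None of these genes was called in any of these fits, and the cause of the changes was not tested.

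No paired analysis was possible because the labels number the livers 1 to 12 across the series, so that the groups share no replicate number. Over all genes the count for the averaged effect was 144 and ran from 11 (without Ahr-null male replicate 1) to 657 (without Ahr-null female replicate 1). It was 1053 with library size alone (986 higher and 67 lower, against 72 and 72), 582 with DESeq2, 432 without the 2 libraries with neural transcripts and 80 with genotype alone. Depth limits Acot3, with 2 counts in 1 library, and Pdk4, with 9, and the spread between 3 livers limits the rest.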
